A study of Homo sapiens with 4 samples.

Results

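SNAI1, SNAI2, ZEB1, ZEB2, TWIST1 and TWIST2 encode the repressors best known for driving epithelial-mesenchymal transition (EMT), and TCF3, TCF4 and TCF12 encode the E proteins with which the TWIST factors pair on DNA. These 9 genes were taken by name from the 55764 gene names of the deposited expression table, and all 9 were listed in it. They were followed in TE5, a human esophageal squamous cell carcinoma cell line grown in culture with fetal bovine serum. In the 2 ETS1 libraries the cells had been infected with lentivirus and stably carried a vector in which, per the labels, a CMV promoter drives human ETS1, an ETS-domain transcription factor. The 2 control libraries came from cells with the backbone alone, whose genotype the labels give as WT. Antibiotic, clonality and time after infection are not stated in the labels, which also do not say whether libraries 1 and 2 of a group are separate cultures. The p-values therefore measure the spread between these libraries, which may be technical.

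In EMT, epithelial cells loosen their junctions and take on mesenchymal traits. SNAI1 (Snail) and SNAI2 (Slug) are zinc finger proteins that bind the E-box, a short DNA motif, and recruit corepressors to junction genes such as CDH1. ZEB1 and ZEB2 bind the same motif through zinc finger clusters on either side of a homeodomain and are held down by the miR-200 microRNAs. TWIST1 and TWIST2 are basic helix-loop-helix (bHLH) proteins that bind E-boxes as dimers with E proteins, while the ID proteins lack the DNA-binding region and take E proteins out of such dimers. In squamous epithelia SNAI2 is also known as a gene of basal, undifferentiated cells.

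The libraries held 40356723 and 44119604 recovered reads in the controls and 57269981 and 56502874 in the ETS1 group, so the ETS1 libraries were 1.35 times deeper on average. Values are FPKM, fragments per kilobase of gene length scaled to library size, and tests used limma on log2(FPKM + 1) for the 14306 genes with a mean of at least 1 FPKM, with Benjamini-Hochberg adjustment over all of them. The overexpressed gene ETS1 stood at 0.491 and 0.509 FPKM in the controls and at 1.84 and 1.87 FPKM in the ETS1 libraries, in the direction of the labels. Of 11 squamous or basal keratinocyte markers, 10 were under 0.1 FPKM in each library, among them KRT5, KRT14 and TP63, which define that lineage, so the defining markers of the labelled squamous cell type were absent. Only SOX2 of that list was tested, at 2.72 and 3.13 FPKM in the controls and 3.52 and 3.82 FPKM in the ETS1 libraries. Fibroblast, leukocyte, endothelial and melanocytic marker lists summed to at most 3.28 FPKM in each library, with PDGFRB, PTPRC, CDH5 and SOX10 under 0.1 FPKM throughout. In bulk RNA, fewer cells that express a gene and less RNA per cell cannot be told apart.

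SNAI2 was the member that changed most, and the increase changed which factor led the group by FPKM. In both controls the order of FPKM from high to low was TCF3, TWIST1, TCF12, SNAI2, ZEB1, SNAI1, ZEB2, TCF4 and TWIST2. In both ETS1 libraries SNAI2 came first, ahead of TCF3, TWIST1, TCF12, ZEB1, ZEB2, SNAI1, TWIST2 and TCF4. ZEB2 and SNAI1 overlapped in the ETS1 libraries, and the other neighbours in either order did not overlap within their group. SNAI2 made up 9.73% and 9.53% of the summed FPKM of the 9 genes in the controls and 36.2% and 36.7% in the ETS1 libraries. FPKM divides by the gene length that the authors' counting used, inferred here as 17957 bases for ZEB2 and 22425 bases for TCF4 against 2287 bases for SNAI2 and 1690 bases for SNAI1. The levels of ZEB2 and TCF4 would thus be higher if taken over one shorter transcript. The 2287 bases of SNAI2 compare with 3392 bases of annotated exons, over which its FPKM would be lower. TCF3, at 6066 inferred bases, had more reads than SNAI2 in the ETS1 libraries, 7045 and 7122 against 3521 and 3669. The first place of SNAI2 and its share of the sum thus depend on the lengths used.

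**Figure D1:**
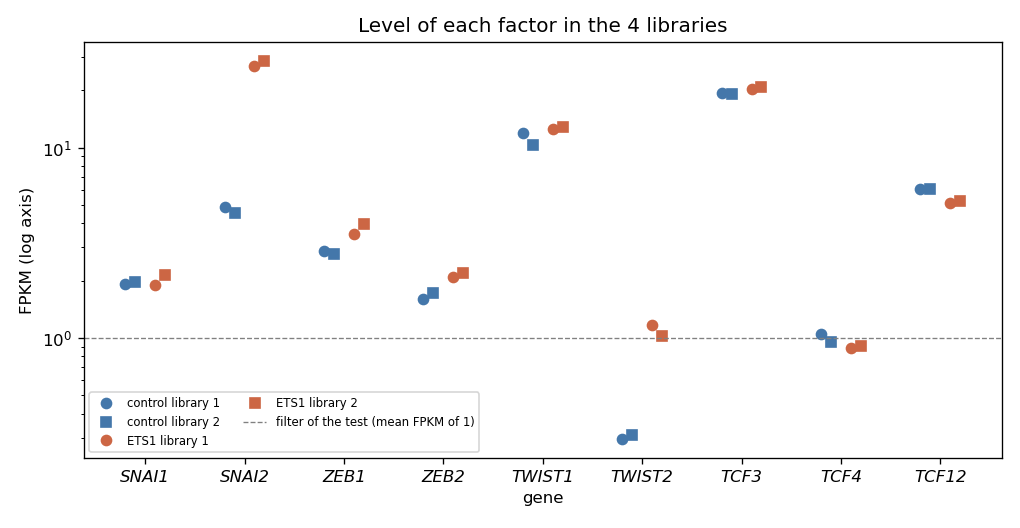
FPKM (log axis) of the 9 genes in the 2 control libraries (blue) and the 2 ETS1 libraries (orange), with circles for library 1 and squares for library 2. SNAI2 moved from 4.86 and 4.54 to 26.9 and 28.4 FPKM, TWIST2 crossed the dashed line at 1 FPKM, and TCF12 was lower in both ETS1 libraries.

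Of the 9 genes, 7 passed the filter of a mean of at least 1 FPKM. TWIST2 and TCF4, with means of 0.698 and 0.948 FPKM, lay under it. TCF4 was tested with a floor of 0.5 FPKM, an alternative chosen after its values were seen, and TWIST2, which clears that floor only through the ETS1 group, with no filter. Among the 7, limma called 4 higher in the ETS1 libraries (SNAI2, ZEB1, ZEB2 and TCF3) and 1 lower (TCF12), where 30.7% of all tested genes were called higher and 28.4% lower. SNAI1 and TWIST1 did not pass. The median log2 change of the 7 was 0.18, against 0.016 over all tested genes. In the authors' deposited table, which tests all 9, 4 were called higher (SNAI2, ZEB1, ZEB2 and TWIST2) and 1 lower (TCF12) at an adjusted p under 0.05, where that table calls 25.3% of its genes higher and 25.9% lower. With 2 against 2 libraries the smallest two-sided p of an exact permutation test is 0.33, the value of each member whose groups did not overlap.

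SNAI2 (chromosome 8, 48917604 to 48921740, minus strand, GRCh38) measured 4.86 and 4.54 FPKM in the controls and 26.9 and 28.4 FPKM in the ETS1 libraries. These values rest on 448 and 458 reads against 3521 and 3669 reads. Each ETS1 library was far above both controls, and the spread within a group was small beside the distance between groups. The means were 4.70 ± 0.223 and 27.6 ± 1.07 FPKM (SD, n = 2 each), a ratio of 5.88. On the log2(FPKM + 1) scale SNAI2 rose by 2.33 with a 95% interval of 2.21 to 2.45 and a limma adjusted p of 0.000207. It passed under all 15 alternatives that were run, with changes between 2.24 and 2.56. One of these, a filter at a mean of 5 FPKM, it cleared only through the ETS1 group.

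The close paralog SNAI1 (chromosome 20, 49982999 to 49988886) gave 1.92 and 1.96 FPKM in the controls and 1.89 and 2.14 FPKM in the ETS1 libraries, from 131 to 204 reads per library. The groups overlapped, with ETS1 library 1 under both controls and ETS1 library 2 above them. Its log2 change was 0.034 (95% interval -0.13 to 0.20, limma adjusted p 0.66). SNAI1 passed under 1 of 14 alternatives, removal of a length and GC trend (0.20, adjusted p 0.0359). The FPKM of SNAI2 was 2.53 and 2.32 times that of SNAI1 in the controls and 14.2 and 13.3 times in the ETS1 libraries. The third SNAIL gene, SNAI3, had 0.957 and 1.36 FPKM in the controls and 0.855 and 0.714 FPKM in the ETS1 libraries, under the filter, and it did not pass in the authors' deposited table (-0.33, adjusted p 0.113), though it passed with voom on recovered reads (-0.55, adjusted p 0.0466).

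The genes whose values over the 4 libraries lay nearest to those of SNAI2, by Euclidean distance in log2(FPKM + 1) centred on the control mean, were INA (distance 0.060), RP3-510D11.2 (0.107) and AL133493.2 (0.205). With only 2 libraries in each group, this distance mostly reflects the size of the change. INA, which encodes the neuronal intermediate filament alpha-internexin, stood at 3.43 and 3.38 FPKM in the controls and at 20.7 and 21.1 FPKM in the ETS1 libraries. RP3-510D11.2 and AL133493.2 are clone-based gene names with no match in the annotation used here, and both were at most at 1.10 FPKM in the controls and at least at 6.36 FPKM in the ETS1 libraries. Both reached the filter only through the ETS1 group.

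Both ZEB genes were moderately higher. ZEB1 (chromosome 10, 31318495 to 31529814) had 2.85 and 2.75 FPKM in the controls and 3.51 and 3.97 FPKM in the ETS1 libraries. The reads behind them numbered 985 and 1039 in the controls and 1724 and 1921 with ETS1. The groups did not overlap, though the ETS1 libraries differed more from each other than the controls did. ZEB1 rose by 0.32 on the log2 scale (95% interval 0.16 to 0.48, limma adjusted p 0.0104) and passed under 13 of 14 alternatives. Removal of a length and GC trend left 0.16 (adjusted p 0.0377). The exception was the fit with no filter, with an adjusted p of 0.0531.

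ZEB2 (chromosome 2, 144364364 to 144524583) had 1.59 and 1.73 FPKM in the controls and 2.09 and 2.21 FPKM in the ETS1 libraries. All ETS1 values were above the control values, from 1154 and 1370 reads against 2145 and 2239 reads. ZEB2 rose by 0.24 on the log2 scale (95% interval 0.090 to 0.39, limma adjusted p 0.0204), but it passed under only 8 of 14 alternatives. Removal of a length and GC trend left 0.043 (adjusted p 0.515). The proportion of the genes overlapped between groups, with ZEB1 at 1.79 and 1.59 times the FPKM of ZEB2 in the controls and 1.68 and 1.80 times in the ETS1 libraries.

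Antisense genes lie at both ZEB loci. ZEB1-AS1, whose exons overlap those of ZEB1 on the opposite strand, had 3.78 and 3.63 FPKM in the controls and 3.03 and 3.31 FPKM in the ETS1 libraries, or -0.18 on the log2 scale (limma adjusted p 0.0391). It lost the threshold under 7 of 14 alternatives. ZEB2-AS1 was at most at 0.129 FPKM. Whether the counting used strand is not given in the sources used here, and without strand the reads of ZEB1 and ZEB1-AS1 cannot be told apart where their exons overlap. The annotation also places AC003986.2 over TWIST1 and TCF4-AS2 over TCF4, which were not analysed here.

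Promoter entries matched 6 of the 9 genes by symbol, and the promoters of SNAI1, SNAI2 and TWIST1 were not analysed here. The entries of ZEB1 in RefSeq on GRCh38.p14 give 7 windows of 300 bases, each from 250 bases before to 50 bases after a start. They were searched on both strands for CAGGTG, the E-box form that SNAI and ZEB proteins bind, and for CCGGAA, an ETS core. One window, chr10:31318966-31319265 on the plus strand, held 3 CAGGTG matches and 1 CCGGAA match, and it is shown because it holds most of the matches found in the windows searched; capitals mark both motifs, and the others of the 7 held 1 CAGGTG match in all.
ZEB1 promoter: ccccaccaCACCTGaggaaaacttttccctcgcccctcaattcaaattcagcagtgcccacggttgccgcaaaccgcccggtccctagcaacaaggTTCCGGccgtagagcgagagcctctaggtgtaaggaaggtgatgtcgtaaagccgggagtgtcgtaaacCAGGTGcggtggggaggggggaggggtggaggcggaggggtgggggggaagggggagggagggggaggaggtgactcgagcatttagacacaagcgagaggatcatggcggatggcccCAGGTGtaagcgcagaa

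Among 35116 such windows of all genes, 20.6% held CAGGTG and 17.2% held CCGGAA. The single windows of ZEB2, TWIST2 and TCF3, the 10 of TCF4 and the 5 of TCF12 held neither motif. A match is a description of the letters and not of binding.

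The microRNAs known to target these transcripts are shown with the seed, bases 2 to 8 from the 5′ end, in capitals, because the seed defines which transcripts a microRNA can pair with. The first 3 share one seed, the next 2 share another that differs from it by 1 base, and miR-34a-5p and miR-203a-3p have their own.
hsa-miR-200b-3p: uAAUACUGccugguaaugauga
hsa-miR-200c-3p: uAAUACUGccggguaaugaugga
hsa-miR-429: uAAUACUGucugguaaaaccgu
hsa-miR-200a-3p: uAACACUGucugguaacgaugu
hsa-miR-141-3p: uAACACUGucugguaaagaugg
hsa-miR-34a-5p: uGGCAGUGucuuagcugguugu
hsa-miR-203a-3p: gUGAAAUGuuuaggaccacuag

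The reverse complement of the first seed, CAGTATT, occurred 6 times in the 2549 bases of the longest annotated 3′ untranslated region of ZEB1 and 5 times in the 5370 bases of that of ZEB2. CAGTGTT, the match to the second seed, occurred 3 times in ZEB1 and 4 times in ZEB2. CAGTATT also occurred 1 time in the 1203 bases of SNAI2 and 1 time in TCF4, and CAGTGTT 2 times in TCF4 and 1 time in TCF12. The miR-34a match CACTGCC occurred 1 time each in SNAI1, whose region has 830 bases, ZEB1 and TCF12. The miR-203a match CATTTCA occurred 4 times in ZEB1, 3 times in TCF4 and 1 time each in SNAI2, ZEB2 and TCF12. No match to these 4 was found in TWIST1, TWIST2 or TCF3. The libraries do not measure mature microRNAs. The rows for MIR200A, MIR200B, MIR141 and MIR429 were listed at 0 in all 4 libraries, and MIR200C only reached 0.263 FPKM in ETS1 library 2. MIR34A was listed at 0 and 0.207 FPKM in the controls and at 4.47 and 5.01 FPKM in the ETS1 libraries, the only one of the 18 listed microRNA loci to reach the filter, which it did only through the ETS1 group. With no filter its limma adjusted p was 0.008, and the authors' deposited table gives it none. It rests on 0 and 1 reads in the controls and 28 and 31 in the ETS1 libraries.

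The TWIST genes differed in level and in change. TWIST1 (chromosome 7, 19020991 to 19117672) had 11.9 and 10.3 FPKM in the controls and 12.5 and 12.8 FPKM in the ETS1 libraries, from 922 to 1468 reads. The ETS1 values were the higher ones, yet the controls lay farther apart from each other than control library 1 lay from the ETS1 libraries. The log2 change of 0.18 did not pass (95% interval -0.0080 to 0.36, limma adjusted p 0.0874). The controls set this call: without control library 1 the change was 0.27 (adjusted p 0.00719), and without control library 2 it was 0.076. TWIST1 passed under 3 of 15 alternatives, of which the others were removal of a length and GC trend (0.32, adjusted p 0.0147) and voom on reads recovered from the FPKM (0.19, adjusted p 0.0287).

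TWIST2 (chromosome 2, 238848032 to 238910543) had 0.294 and 0.308 FPKM in the controls and 1.17 and 1.02 FPKM in the ETS1 libraries. The reads behind these values were few in the controls, 14 and 16, and 79 and 68 in the ETS1 libraries, and the groups stood well apart. The FPKM ratio was 3.64, with means of 0.301 ± 0.0094 and 1.10 ± 0.106 FPKM (SD, n = 2 each). With no filter on low values, TWIST2 rose by 0.69 on the log2(FPKM + 1) scale, which understates the change of so low a gene (limma adjusted p 0.0138). Voom on recovered reads, which adds no pseudocount of 1 FPKM, gave 1.82 (95% interval 1.16 to 2.48, adjusted p 0.000276), and the authors' deposited table gives 1.58 with a standard error of 0.507 and an adjusted p of 0.000317. Both of these cover only genes with a mean of at least 0.5 FPKM, which TWIST2 reached only through the ETS1 libraries. Even so TWIST1 stayed the more abundant of the pair, at 40.5 and 33.4 times the FPKM of TWIST2 in the controls and 10.7 and 12.5 times in the ETS1 libraries.

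The RefSeq promoter window of TWIST2, chr2:238847835-238848134 on the plus strand of GRCh38.p14, is printed because TWIST2 had the highest ratio among the members with such an entry. Capitals mark GGAA or its reverse complement, the core shared by ETS factor motifs. This window held 3 matches, and 95.5% of the 35116 windows of all genes held at least 1, with a median of 3.
TWIST2 promoter: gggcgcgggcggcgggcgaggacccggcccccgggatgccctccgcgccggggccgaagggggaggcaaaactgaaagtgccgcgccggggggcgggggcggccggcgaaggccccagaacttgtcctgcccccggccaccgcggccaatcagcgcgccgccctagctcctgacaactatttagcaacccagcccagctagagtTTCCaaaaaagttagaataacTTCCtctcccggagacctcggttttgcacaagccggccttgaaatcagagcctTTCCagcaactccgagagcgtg

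The E proteins, which pair with TWIST and with lineage bHLH factors, changed little and in different directions. TCF3, whose products are E12 and E47, was the most abundant, with 19.3 and 19.1 FPKM in the controls and 20.3 and 20.8 FPKM in the ETS1 libraries. Its values did not overlap, and the log2 change of 0.091 was just past the threshold (95% interval 0.014 to 0.17, limma adjusted p 0.0486). TCF3 passed under only 6 of 15 alternatives, under 0 of the 4 that each left out one library, and the authors' deposited table gives 0.070 with an adjusted p of 0.206.

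TCF12 (chromosome 15, 56918623 to 57299281), which encodes HEB, had 6.06 and 6.04 FPKM in the controls and 5.12 and 5.24 FPKM in the ETS1 libraries. The 4 values fell in 2 tight pairs, counted from 2310 and 2516 reads in the controls and 2770 and 2796 in the deeper ETS1 libraries. TCF12 fell by 0.19 on the log2 scale (limma adjusted p 0.00921, with a 95% interval of -0.28 to -0.098) and passed under 13 of 15 alternatives, with -0.31 after removal of a length and GC trend. Without ETS1 library 1 its adjusted p was 0.0638.

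TCF4, which encodes E2-2 and is not the Wnt effector TCF7L2, had 1.05 and 0.949 FPKM in the controls and 0.884 and 0.908 FPKM in the ETS1 libraries, from 939 to 1151 reads. The control values were the higher ones. With the floor of 0.5 FPKM the log2 change was -0.076 (95% interval -0.24 to 0.093, limma adjusted p 0.366), and the authors' deposited table gives -0.16 with an adjusted p of 0.0996. Summed over the 3 E proteins, the level was 26.4 and 26.1 FPKM in the controls and 26.3 and 26.9 FPKM in the ETS1 libraries. The share from TCF3 was 73.1% and 73.2% in the controls and 77.2% in each ETS1 library, and that from TCF12 was 22.9% and 23.2% against 19.5% and 19.4%.

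**Figure D2:**
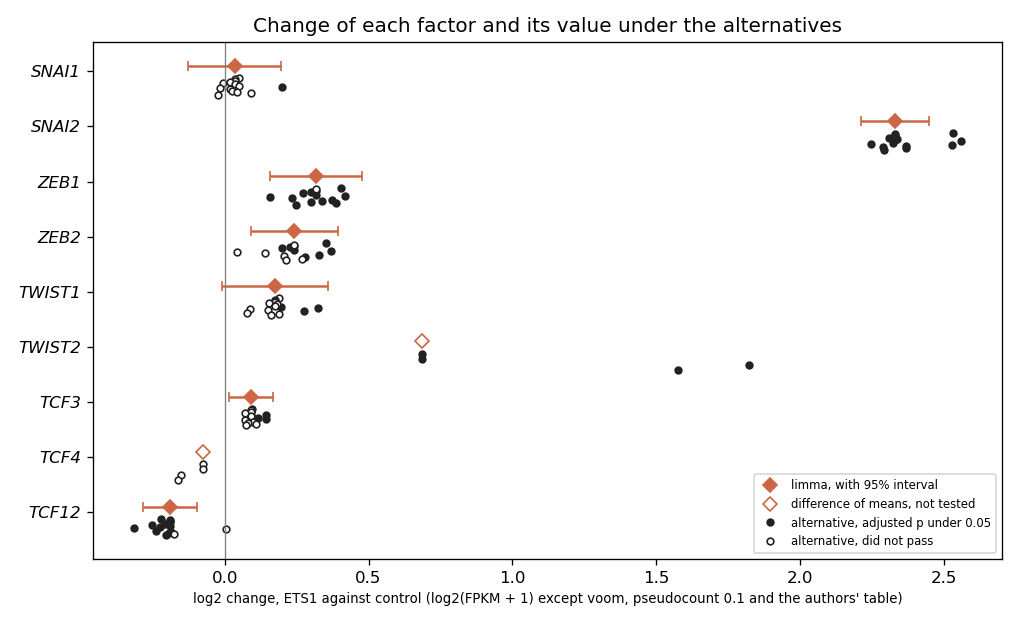
Log2 change in the ETS1 libraries against the controls for each gene: orange diamonds give limma on log2(FPKM + 1) with its 95% interval (open diamonds: difference of means, under the filter and not tested), and black dots give the alternatives, filled where the adjusted p was under 0.05. SNAI2 stays between 2.24 and 2.56 and filled throughout, while the dots of ZEB2, TWIST1 and TCF3 are mixed and 1 dot of TCF12 lies at 0.0028.

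The chromosomal neighbours of TCF12 and TWIST2 moved in the same direction as those genes, and the neighbours of SNAI2 did not move together. TCF12 lies on chromosome 15, where the other 343 tested protein-coding genes had a median log2 change of -0.23. Of the 30 within 5 Mb of its start, 25 were lower, 16 were called lower and 0 called higher, with a median of -0.19, the value of TCF12 itself. With the local median removed TCF12 was at 0.0028 (adjusted p 0.952). TWIST2 lies near the end of chromosome 2, where 31 of 32 tested neighbours were higher and 30 were called higher, with a median of 0.40. On the voom scale the neighbours had a median of 0.54 and a highest value of 1.19, all below the 1.82 of TWIST2. The 9 tested neighbours of SNAI2 had a median of 0.086, with 3 called higher and 3 lower, although the other 380 tested genes of chromosome 8 had a median of -0.15. ZEB1 and ZEB2 had neighbour medians of 0.071 and 0.13, and with the local median removed ZEB2 no longer passed (0.14, adjusted p 0.13). The part of these regional shifts in the members' changes was not tested beyond removal of the local median.

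**Figure D3:**
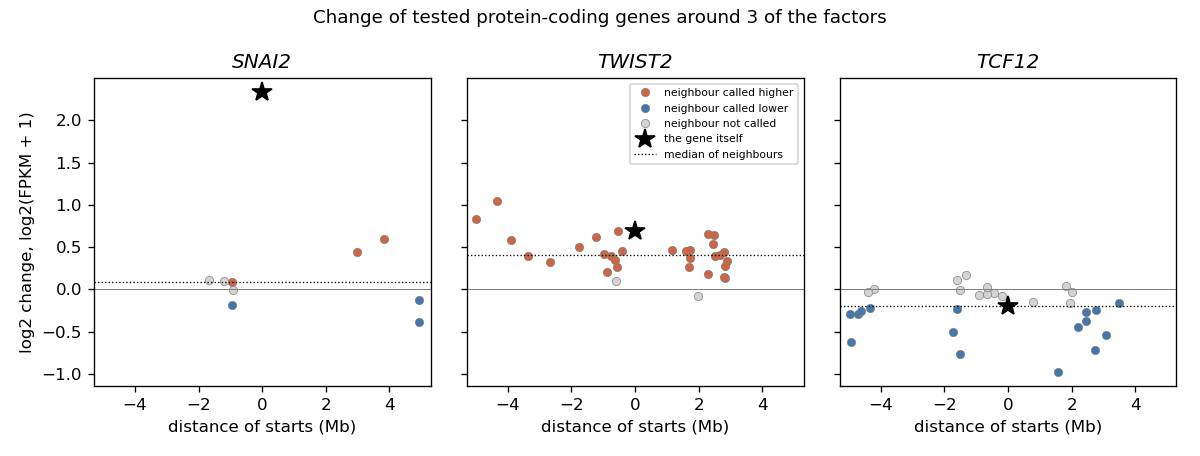
Log2 change on the log2(FPKM + 1) scale of tested protein-coding genes against the distance of their start from the start of SNAI2, TWIST2 or TCF12 (Mb), within 5 Mb; the star is the gene itself and the dotted line the median of its neighbours. SNAI2 stands at 2.33 above a median of 0.086, TWIST2 at 0.69 among neighbours with a median of 0.40, and TCF12 on its neighbours' median of -0.19.

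The ID genes, whose proteins sequester E proteins, were compared next, and 2 of the 4 rose (50%) and 0 fell, against 30.7% higher and 28.4% lower of all tested genes. ID2 had 58.0 and 56.5 FPKM in the controls and 89.7 and 90.7 FPKM in the ETS1 libraries, a log2 change of 0.65 (limma adjusted p 0.000439). ID4 had 25.6 and 23.2 FPKM in the controls and 48.0 and 54.0 FPKM in the ETS1 libraries, a log2 change of 1.03 (limma adjusted p 0.000791). For both genes each ETS1 library exceeded both controls, and both passed under all 15 alternatives run. ID1 (3.87 and 3.98 against 4.21 and 4.42 FPKM) and ID3 (19.9 and 22.4 against 20.5 and 20.2 FPKM) did not pass, with limma adjusted p of 0.0822 and 0.519, and the sign of ID3 differed between scalings (0.014 under quantile normalization, -0.047 as deposited). Each passed under 1 alternative: ID1 with the length and GC trend removed (0.29, adjusted p 0.00293) and ID3 without control library 1 (-0.13, adjusted p 0.0363). Summed over the 4 genes, the ID level was 107.4 and 106.1 FPKM in the controls and 162.4 and 169.4 FPKM in the ETS1 libraries. The summed ID level was 4.06 and 4.07 times the summed E-protein level in the controls and 6.18 and 6.29 times in the ETS1 libraries.

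**Figure D4:**
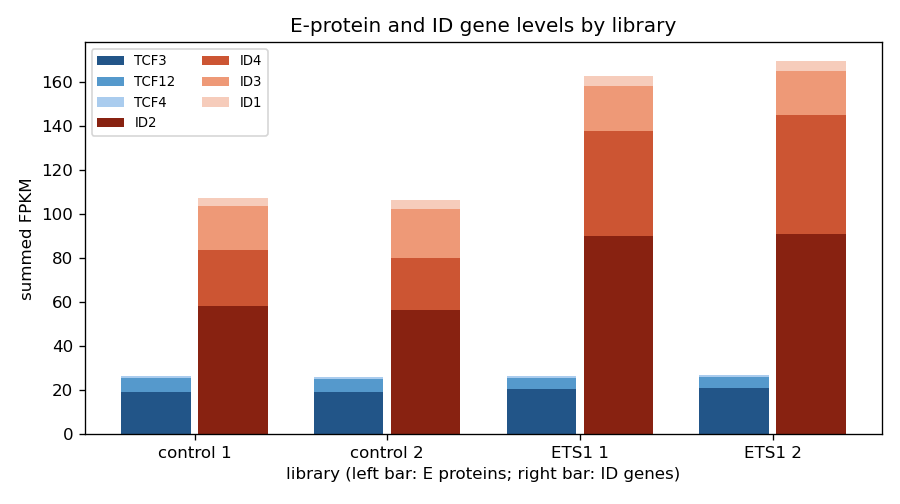
Summed FPKM per library of the E-protein genes TCF3, TCF12 and TCF4 (left bars) and of ID1 to ID4 (right bars). The E-protein bars stay between 26.1 and 26.9 FPKM, while the ID bars go from 106.1 and 107.4 FPKM in the controls to 162.4 and 169.4 FPKM in the ETS1 libraries, through ID2 and ID4.

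Of 30 lineage bHLH genes whose products also pair with E proteins, 7 were tested, with 1 called higher (14.3%) and 3 lower (42.9%), against 30.7% and 28.4% of all tested genes, and a median log2 change of -0.26. HAND1, a factor of heart and placenta, went from 13.9 and 14.2 FPKM to 10.6 and 10.9 FPKM (-0.36, limma adjusted p 0.00124). MESP1, a factor of early mesoderm, went from 8.06 and 8.83 FPKM to 5.72 and 6.49 FPKM (-0.41, limma adjusted p 0.00707), and its relative MESP2 rose from 1.36 and 1.61 to 2.17 and 2.07 FPKM (0.33, limma adjusted p 0.0144). MESP2 passed under 11 of 14 alternatives. The third gene called lower, NEUROG2, a neurogenic factor, had a log2 change of -0.26 and passed the filter only through the controls; in the authors' deposited table it did not pass (adjusted p 0.0726). Of the 6 genes over the filter in both groups, 1 was called higher and 2 lower. OLIG2, a factor of oligodendrocytes, at -0.26 did not pass (limma adjusted p 0.114), but passed under 4 of 14 alternatives, among them the authors' deposited table (-0.35, adjusted p 0.0456). MESP1 and MESP2 lie on chromosome 15, as TCF12 does. OLIG1, which lay under the filter, went from 0.889 and 1.14 FPKM in the controls to 0.436 and 0.341 FPKM in the ETS1 libraries. Its log2 change was -0.54, and with no filter its limma adjusted p was 0.0399. TAL1, MSC, TCF21, TCF15 and ASCL2 were each under 0.35 FPKM in every library.

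Of 34 corepressors and chromatin partners of these repressors, 32 were tested. Called higher were 8 (25%) and lower 9 (28.1%), close to the 30.7% and 28.4% of all tested genes, with a median log2 change of 0.039. CTBP1 and CTBP2, the corepressors that ZEB proteins bind, changed by 0.074 and 0.10 and did not pass (limma adjusted p 0.0702 and 0.0742). Both passed under quantile normalization and with voom, and CTBP2 was at -0.0054 with the length and GC trend removed. EP300, a histone acetyltransferase and coactivator of E proteins, rose by 0.37, SUZ12 of the Polycomb complex by 0.31 and AJUBA, a LIM protein that bridges SNAI factors to corepressors, by 0.28 on the log2 scale. SUZ12 passed under 10 of 15 alternatives, and EP300 and AJUBA passed under all that were run.

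Among 19 genes that act on the stability of the SNAI or ZEB1 proteins, all tested, 10 were called higher (52.6%) and 4 lower (21.1%), against 30.7% and 28.4% of all tested genes, with a median log2 change of 0.18. LATS2, a Hippo kinase that phosphorylates SNAI1, went from 2.03 and 2.12 FPKM to 3.32 and 3.53 FPKM (0.53, limma adjusted p 0.00149). FBXL14, the ubiquitin ligase subunit that targets SNAI and TWIST proteins, went from 3.89 and 4.17 to 5.94 and 5.82 FPKM (0.45, limma adjusted p 0.00157). USP51, a deubiquitinase of ZEB1, rose by 0.39 and COPS2, a subunit of the COP9 signalosome, which protects SNAI1, fell by 0.38 on the log2 scale. COPS2 lies on chromosome 15 and was at -0.16 with the local median removed and at -0.64 with the length and GC trend removed. Members with opposite known effects on stability are thus among the genes called higher, and protein levels were not measured.

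Genes known to be repressed by the SNAI, ZEB and TWIST proteins were next. Of 30 names, 14 were tested, with 2 called higher (14.3%) and 4 lower (28.6%) and a median log2 change of -0.074. The share called lower was close to the 28.4% of all tested genes, and 30.7% of these were called higher. Those called lower were the tight junction genes OCLN (-0.27) and CGN (-0.24), the polarity gene LLGL2 (-0.29) and the keratin gene KRT18 (-0.29), with limma adjusted p between 0.00223 and 0.0119. DSP, a desmosome gene, rose by 0.23. KRT8, which encodes the keratin that pairs with KRT18 and stood in the simple epithelial marker list, was higher, at 3.91 and 3.87 FPKM in the controls and 6.48 and 6.59 FPKM in the ETS1 libraries (0.62, limma adjusted p 0.000591). That list of 6 genes summed to between 16.1 and 17.0 FPKM in each library. EPCAM did not pass (-0.23, limma adjusted p 0.0525), but it passed under 4 of 14 alternatives.

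CDH1, the E-cadherin gene and the best known target of these repressors, was low in all 4 libraries and higher in the ETS1 group. It had 0.571 and 0.567 FPKM in the controls and 1.08 and 0.916 FPKM in the ETS1 libraries. These were 142 and 154 reads in the controls and 381 and 319 with ETS1. Each ETS1 library exceeded both controls. It lay under the filter; it changed by 0.35 with the floor of 0.5 FPKM (95% interval 0.15 to 0.54, limma adjusted p 0.0165) and by 0.80 with voom on recovered reads (adjusted p 0.000253). With no filter it did not pass (adjusted p 0.0537).

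ESRP2, an epithelial splicing regulator that ZEB1 is known to repress, was named after its values were seen. It had 0.307 and 0.309 FPKM in the controls and 1.33 and 1.22 FPKM in the ETS1 libraries, counted from 69 and 76 reads in the controls and 426 and 385 with ETS1. The groups were far apart, and with no filter the change was 0.80 (limma adjusted p 0.0102). Its paralog ESRP1 was at most at 0.12 FPKM. Of the 14 epithelial factors that oppose EMT, 3 were tested: FOXA1 (-0.34) and GATA3 (-0.21) were lower and KLF4 (0.22) higher, with limma adjusted p of 0.00364, 0.0399 and 0.0166. Of all tested genes 28.4% were called lower and 30.7% higher. GATA3 passed under 7 of 14 alternatives and KLF4 under 10 of 14. GRHL2 and OVOL2, which repress ZEB1 in epithelia, were at most at 0.0173 and 0.171 FPKM.

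Of 23 mesenchymal genes that rise in EMT, 13 were tested, with 8 called higher (61.5%) and 1 lower (7.69%), against 30.7% and 28.4% of all tested genes, and a median log2 change of 0.30. SPARC and TNC reached the filter only through the ETS1 group and MMP14 only through the controls, and of the 10 genes over it in both groups 6 were called higher and 0 lower. SPARC, a matrix glycoprotein gene, went from 0.313 and 0.258 FPKM to 2.68 and 2.64 FPKM, and TNC, which encodes tenascin C, from 0.830 and 0.903 to 5.05 and 5.07 FPKM. VIM, the vimentin gene, went from 242 and 239 to 316 and 314 FPKM (0.39, limma adjusted p 0.000679), and FN1, the fibronectin gene, from 2.34 and 2.19 to 3.61 and 3.59 FPKM. MMP14, a membrane metalloprotease gene, fell by 0.50 on the log2 scale. CDH2, the N-cadherin gene, changed by 0.14 (limma adjusted p 0.0429), but it passed under 8 of 15 alternatives and reversed to -0.074 with the local median removed. The fibroblast marker list summed over its 8 genes to 2.36 and 2.20 FPKM in the controls and to 3.17 and 3.28 FPKM in the ETS1 libraries, nearly all of it COL1A1. COL1A1 is also one of the 8 mesenchymal genes called higher, and COL1A2, COL3A1, PDGFRA and PDGFRB stand in both lists too, so the lists are not independent. In that list 5 of 8 genes were under 0.1 FPKM in each library, among them DCN and THY1, and COL1A2 was at 0 in 3 libraries. CDH11, POSTN, AXL and COL1A2 were each at most at 0.115 FPKM.

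**Figure D5:**
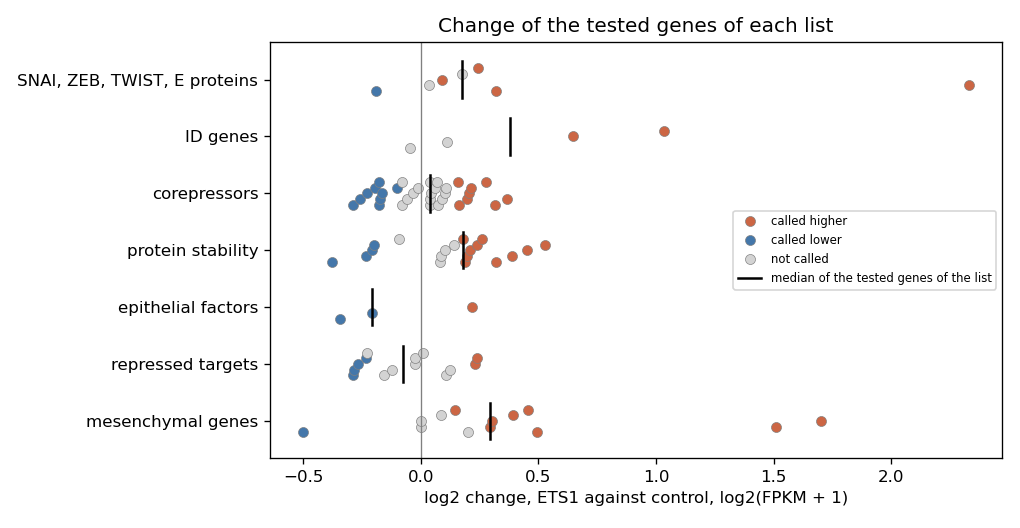
Log2 change on the log2(FPKM + 1) scale of the tested genes of 7 lists, orange where called higher, blue where called lower and grey where not called, with the median of each list as a black bar. Among these lists, which leave out the bHLH partners, the medians run from -0.21 for the 3 tested epithelial factors to 0.38 for the 4 ID genes, and SNAI2 at 2.33 is the farthest point.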

How the data were processed

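RNA of 2 ETS1 and 2 control libraries was sequenced in bulk. The authors deposited FPKM for 55764 gene names. The authors' tools were HISAT2, HTSeq and DESeq2 on GRCh38, per the submitters' processing notes; their roles, versions, annotation and strand setting are not given in the sources used here. The authors' second deposited table repeats the FPKM for 16652 genes and adds a mean normalized count, a signal averaged over the libraries per the file headers. Per the file headers it also holds the authors' log2 fold changes with standard errors and their p-value and adjusted p-value columns. As the values were FPKM and not raw counts, limma 3.58.1 (R 4.3.3) was used with a group term, an intensity trend, a pseudocount of 1 FPKM, a filter at a mean of 1 FPKM, two-sided tests and an adjusted p threshold of 0.05. The fit was also run on simulated counts, the outcome of which is not reported here, so no result rests on it.

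Reads were recovered from the FPKM, the mean normalized count and 1 scale per library; between 99.3% and 99.7% of the values, in 3 classes of expression, came within 0.05 of a whole number, where chance gives 10%. Voom ran on these reads. Positions come from a match of names to GENCODE 29 on GRCh38, and 84% of tested genes had a position and GC content. The labels do not say that a library number marks a shared day or culture, so the main fit did not treat the numbers as pairs. Same-numbered libraries had a correlation of deviations of -0.046, and a replicate block was run as an alternative. The members and gene lists were chosen with earlier results of these data known. Named genes are the 9 members, ETS1, up to 4 genes of each list with the largest change, a fixed set of ID, junction, mesenchymal and corepressor genes, the 3 genes nearest to SNAI2 and genes overlapping a member; NEUROG2, CGN, DSP, KRT8, ESRP2, SNAI3 and genes given only as low were named after their values were seen; some genes of the lists are not reported here. Alternatives were other pseudocounts, filters and scalings, the replicate block, voom, removal of length, GC and local trends, the authors' values and each library left out.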

Additional observations from a re-analysis of the deposited data

How the results depend on the processing

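SNAI2 passed under all 15 alternatives run, and ZEB1 kept its direction under all 14. With no filter, 2 of 9 members were called higher instead of 4 of 7, and 3622 of 35055 tested genes instead of 4394 of 14306. The limma adjusted p-values were then 0.0531 for ZEB1 (0.32), 0.0734 for ZEB2 (0.24), 0.0739 for TCF3 (0.091) and 0.0138 for TWIST2 (0.69). At a mean FPKM of at least 5 only 4 members were tested, with 2 called higher, of which SNAI2 cleared this filter only through the ETS1 group. In that fit 2562 of 8215 tested genes were called higher, against 4394 of 14306 in the main fit. With the floor of 0.5 FPKM, chosen after seeing the data, TWIST2, which clears it only through the ETS1 group, passed (0.69, adjusted p 0.00254) and TCF3 did not (0.091, adjusted p 0.0519). TCF3 also missed the threshold under trimmed-mean scaling (0.070, adjusted p 0.0938) and in the authors' deposited table (0.070), which gives TWIST2 1.58. With the replicate block TCF3 lost its call (0.091, limma adjusted p 0.111), and no other member's call changed. Quantile normalization turned SNAI1 to -0.0064 and ID3 to 0.014. Voom on recovered reads passed TWIST1 (0.19) and TWIST2 (1.82). Removal of the length and GC trend passed SNAI1 (0.20) and TWIST1 (0.32), took ZEB2 to 0.043 and ZEB1 to 0.16, and turned ID3 to 0.11 and CTBP2 to -0.0054. Removal of the local median left 0 members lower, with SNAI1 at -0.015, ZEB2 at 0.14, TCF12 at 0.0028 and CDH2 at -0.074. The causes of these shifts were not tested.

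Leaving out each library gave 2 to 3 members higher, 0 to 1 lower and 2845 to 3962 tested genes higher. The 2 came without ETS1 library 1 or 2, the 0 without ETS1 library 1, and the 2845 without ETS1 library 2. The log2 changes ran from -0.025 to 0.093 for SNAI1, 0.20 to 0.28 for ZEB2, 0.076 to 0.27 for TWIST1, 0.074 to 0.11 for TCF3 and -0.20 to -0.18 for TCF12; ID3 ran from -0.13 without control library 1 to 0.034 without control library 2. ZEB2 kept its call in 1 of these 4 fits, without control library 2. Of 475 values of 33 other genes under alternatives, 424 kept direction and side of the threshold, 32 lost it, 14 gained it and 5 reversed. TWIST2 rests on 14 and 16 control reads, which limits its precision.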
